A study of Mus musculus with 14 samples.

Results

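Of 12399 genes measured in both mouse corpus callosum and stem cell cultures labelled as differentiated oligodendrocytes, 126 moved by at least 0.5 log2 units in opposite directions when libraries labelled Qk-KO were set against libraries labelled WT. Of these, 105 were higher in the Qk-KO callosum and lower in the Qk-KO cultures, and 21 were lower in the callosum and higher in the cultures. The genes were selected on these very changes, so the changes are given as a description, without a test. The change was the log2 ratio of the mean fitted CPM (a gene's part of all fitted counts of a library, on the usual CPM scale) of the 2 genotypes, taken within each deposited table, over genes matched by identifier with a mean normalized count of at least 50 in both. That mean is over both genotypes, so a gene could pass it through the genotype in which it was high.

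The RNA-seq series holds 14 libraries from mice of a FvB/C57BL6 hybrid strain. The callosum libraries came from 8-week-old Plp-CreERT2 mice, in which a promoter active mainly in the oligodendrocyte lineage drives a tamoxifen-inducible Cre recombinase. The 4 labelled Qk-KO were QKLoxP/LoxP and the 4 labelled WT were QKLoxP/+, so the controls too carry the Cre and 1 floxed copy. All received tamoxifen at 8 weeks of age and were sampled 4 days afterwards. The culture libraries (3 Qk-KO, 3 WT) came from neural stem cells at passages 7, 12 and 13, each passage giving 1 library of each genotype. The differentiation medium held B-27, GlutaMAX-I (2 mM), IGF-1 (100 ng/ml) and T3 (50 ng/ml). The sample descriptions carry 40HT for every Qk-KO culture and EtOH for every WT culture, so treatment and genotype cannot be told apart there. The libraries' totals of fitted counts ranged from 15048646 to 27666519 in callosum and from 38325833 to 48912999 in culture. The cultures were not oligodendrocytes alone: in WT cultures, 22 astrocyte markers summed to 16101 CPM, 18 myelin protein genes to 4189 CPM and 37 mature oligodendrocyte markers to 1738 CPM. A fitted level is the same in every library of a genotype, so each gene has 1 level per genotype and system, and whether single libraries overlapped could not be seen.

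Quaking, the protein of Qk, is an RNA-binding protein of the STAR family that is abundant in myelinating glia and in astrocytes. It binds ACUAA-type elements in RNA and acts on splicing, stability and transport, and its loss from oligodendrocytes disturbs myelin. When myelin is damaged, nearby astrocytes enlarge and make more glial fibrillary acidic protein, and microglia, the macrophages of the brain, take up debris and raise lysosomal, lipid-handling and complement genes. The callosum holds all of these cells with axons and vessels, whereas stem cell cultures hold neural lineages with few or no microglia. In bulk samples such as these, fewer cells of a type and less RNA per cell cannot be told apart.

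Sequences are shown for a few opposed genes because they carry letters for which the opposed genes were searched: the quaking-type core ACTAAC or ACTAAT in 3′ UTRs, and in promoters the STAT-type TTCNNNGAA, the E-box CACGTG with its extended form TCACGTGA, and the AP-1-type TGACTCA. Each 3′ UTR was that of the gene's coding transcript with the longest one (GENCODE M21, GRCm38). The following 6 stretches are sense-strand and 30 bases long, with the core in capitals.
Gfap: ccttcaccttcaACTAACaggatactcacc
Serpina3n: gattagatagtgACTAACtgtgttataacc
Osmr: acaccttatgtaACTAACcagtaagatgtg
Cd9: gttttttttgccACTAATattagtattcat
Msn: tagttttgcctaACTAACactgtgctggag
Plcb4: gcaccaattatgACTAACccattcaaacac

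Plcb4 is the only one of these 6 genes that was lower in callosum and higher in culture. Promoters of 3 genes that were higher in callosum and lower in culture follow, from 250 bases before to 50 after the start listed by RefSeq (GRCm38.p6), 5′ to 3′ on the gene's strand. They are Gfap (chr11:102897151-102897450, minus strand), Socs3 (chr11:117969317-117969616, minus strand) and Ctsd (chr7:142387778-142388077, minus strand). Capitals mark TTCNNNGAA in Gfap and Socs3 and CACGTG in Ctsd.
Gfap: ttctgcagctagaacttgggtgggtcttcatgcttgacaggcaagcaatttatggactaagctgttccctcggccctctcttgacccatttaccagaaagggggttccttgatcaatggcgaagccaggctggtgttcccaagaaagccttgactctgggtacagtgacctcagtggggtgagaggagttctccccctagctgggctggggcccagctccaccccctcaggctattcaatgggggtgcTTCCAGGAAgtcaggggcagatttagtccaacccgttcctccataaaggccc
Socs3: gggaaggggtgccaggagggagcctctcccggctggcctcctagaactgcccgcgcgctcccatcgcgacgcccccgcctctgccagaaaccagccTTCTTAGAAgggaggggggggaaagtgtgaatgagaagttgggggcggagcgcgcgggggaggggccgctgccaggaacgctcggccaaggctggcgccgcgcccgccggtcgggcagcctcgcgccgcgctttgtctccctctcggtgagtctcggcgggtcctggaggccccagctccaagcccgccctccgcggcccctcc
Ctsd: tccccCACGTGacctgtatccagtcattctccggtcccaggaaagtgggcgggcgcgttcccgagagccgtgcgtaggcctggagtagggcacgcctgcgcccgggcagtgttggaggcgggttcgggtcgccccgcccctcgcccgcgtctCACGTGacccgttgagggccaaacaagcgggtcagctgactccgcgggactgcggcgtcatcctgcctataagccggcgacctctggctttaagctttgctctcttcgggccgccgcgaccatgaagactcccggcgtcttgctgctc

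The opposed genes lie in a pair of sparse corners of the plot of both changes. The genes up in callosum and down in culture were 0.847% of the 12399 genes, and the genes down in callosum and up in culture were 0.169%. Of the 319 genes up by at least 0.5 in callosum, 105 (32.9%) were down by as much in culture and 68 (21.3%) were up. Over all genes, 1796 (14.5%) were down and 2200 (17.7%) up by that much in culture. Of the 87 genes down in callosum, 21 (24.1%) were up in culture and 27 (31%) down. Across the 12399 genes the changes in the 2 systems had a Pearson r of -0.0718 and a Spearman rho of -0.0418, given as a description, since genes are not independent replicates.

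**Figure D1:**
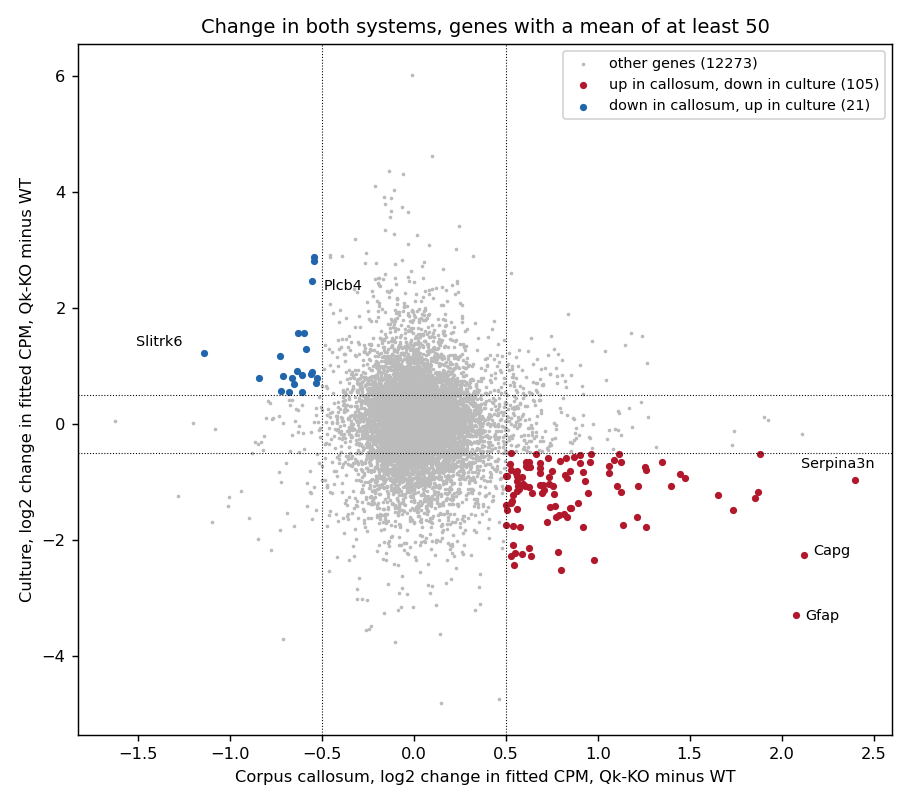
Each point is 1 of 12399 genes, with the log2 change in fitted CPM (Qk-KO minus WT) in corpus callosum on the horizontal axis and in culture on the vertical axis; dotted lines stand at 0.5 and -0.5. The 105 genes up in callosum and down in culture (red) reach further from 0 than the 21 of the other direction (blue), with Gfap, Capg and Serpina3n at the far edge.

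In the first group the median change was 0.75 log2 units in callosum (range 0.50 to 2.40) and -1.07 in culture (range -3.29 to -0.50), against medians of 0.01 and 0.10 over all 12399 genes. In the second group the medians were -0.61 (range -1.14 to -0.53) and 0.86 (range 0.55 to 2.88). The threshold cuts through a continuum. Ctsa (0.50 in callosum, -0.90 in culture) and Sema3d (0.50 and -1.75) stood just inside it, and Fam189a2 (0.50 and -0.50, the latter -0.499 before rounding) and Sorbs3 (0.50 and -0.63, the former 0.499) just outside. On the other side, Adarb1 (-0.53 and 0.70) and Six4 (-0.53 and 0.78) stood inside, and Gabra4 (-0.50 and 0.65, the former -0.497) and Mybl1 (-0.49 and 0.95) outside.

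The authors' deposited tables carry a Wald test per gene and system. As the same contrasts chose the genes, the counts are descriptive. Of the 105 genes up in callosum and down in culture, 74 passed an adjusted p under 0.05 in callosum, where 1.97% of the 12326 genes tested in both tables were called higher, and 90 passed in culture, where 18.3% were called lower. Both tests were passed by 63 of the 105, beside 78 such genes (0.633%) among the 12326, the other ones having moved by less than 0.5 in a system. There were 11 called in callosum alone, 27 in culture alone and 4 in neither. Of the 21 genes of the other direction, 17 passed in culture, where 16.5% of genes were called higher, and 0 passed in callosum, where 0.219% were called lower. By the unadjusted deposited p, 9 of the 14 with a p in callosum were under 0.05. Among the 105 genes up in callosum and down in culture, 101 were. Both groups were chosen on this change and the share over all genes was not computed, so these counts are no test. The second group therefore rests on callosum values that were not called by the authors' deposited test.

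Gfap, which encodes the main intermediate filament of astrocytes (chr11:102887336-102900912, minus strand), was among the most strongly opposed genes. It rose 4.22-fold in callosum, from a fitted 228 CPM in WT to 965 CPM in Qk-KO, and fell 9.82-fold in culture, from 4008 to 408 CPM. In the authors' deposited table these were log2 changes of 2.06 ± 0.189 (SE, adjusted p = 2.3e-24, 4 libraries per genotype) and -3.37 ± 0.288 (adjusted p = 2.37e-29, 3 per genotype). Of the 20 measured genes of a reactive astrocyte list, 10 (50%) were opposed, all 10 up in callosum and down in culture. Over all genes that share was 0.847%. This list and the others below were chosen with earlier results of these data known, so their shares are descriptions. Serpina3n, a secreted protease inhibitor of the acute phase, had the largest callosum change, from 13.1 to 69.4 CPM. Its culture values of 166 and 84.7 CPM came with a wide error (-1.05 ± 0.667, adjusted p = 0.253, authors' deposited table). Aspg, an asparaginase, rose from 2.54 to 7.99 CPM in callosum and fell from 9.30 to 3.96 CPM in culture. Cd14, a co-receptor for bacterial lipopolysaccharide that microglia also make, rose from 2.20 to 7.97 CPM and fell from 3.01 to 1.25 CPM.

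Of the other opposed reactive astrocyte genes, not all were called in both systems. S1pr3, a receptor for sphingosine 1-phosphate, rose from 6.65 to 11.5 CPM in callosum and fell from 40.8 to 13.7 CPM in culture. S100a10, a partner of annexin A2, stood at 10.6 and 15.01 CPM in callosum without a call, and fell from 54.6 to 29.3 CPM in culture. Gbp2, an interferon-induced GTPase, stood at 3.36 and 4.85 CPM in callosum without a call and fell from 28.7 to 11.2 CPM in culture. Emp1, a membrane protein, was called in neither system (2.67 and 4.51 CPM, then 5.995 and 2.85 CPM). The 10 measured members of the list that were not opposed had medians of 0.30 in callosum and -0.71 in culture. Vim, a second intermediate filament gene, had 41.6 and 88.1 CPM in callosum and 835 and 622 CPM in culture.

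General astrocyte markers did not share the rise in callosum. Of 22 measured, 2 (9.09%, against 0.847% of all genes) were opposed, Gfap and the water channel gene Aqp4. Aqp4 rose from 188 to 308 CPM in callosum and fell from 1962 to 889 CPM in culture. All 22 were lower in Qk-KO cultures, 19 of them called (18.3% of all genes tested), with a median of -1.32. The callosum median was 0.05, with 2 called higher (1.97% of all). The glutamate transporter gene Slc1a3 stood at 532 and 580 CPM in callosum, and fell from 1897 to 474 CPM in culture. The summed level of the 22 markers was 5876 CPM in WT and 7031 CPM in Qk-KO callosum, and 16101 and 5101 CPM in the cultures. These sums include Gfap itself, at 228 and 965 CPM in callosum and 4008 and 408 CPM in culture. The culture side of Gfap and of the reactive genes thus lay beside a lower level of all the other astrocyte markers measured, whose part in the result was not tested.

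**Figure D2:**
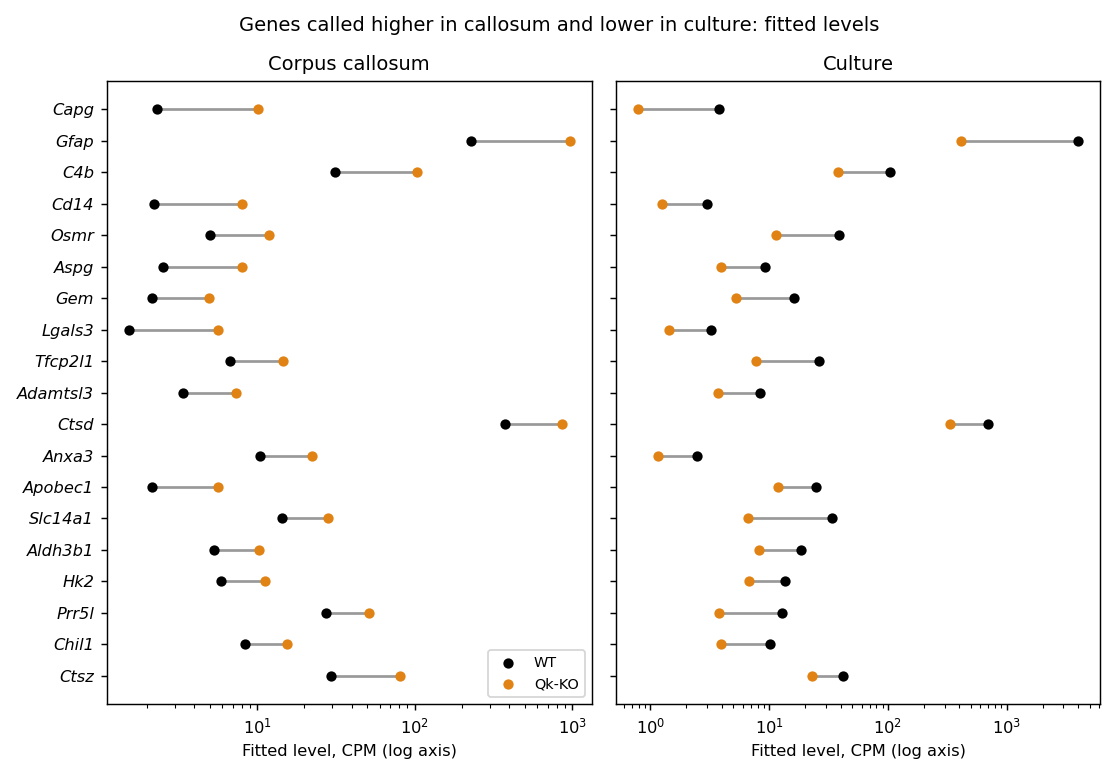
Fitted level in CPM on a log axis, in corpus callosum (left) and culture (right), of 19 of the 20 genes with the largest smaller-of-two changes among those called in both systems; black is WT, orange Qk-KO, with 1 fitted value per genotype and no replicate spread. Orange lies to the right of black for every gene in callosum and to the left in culture, over levels from 0.782 CPM (Capg in culture) to 4008 CPM (Gfap in culture).

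Several opposed genes belong to signalling by cytokines of the interleukin-6 family, which act through gp130 and STAT3 and are strong inducers of Gfap. Of 15 such genes measured, collected after values had been seen, 4 (26.7%, against 0.847% of all genes) were opposed. Osmr, the oncostatin M receptor, rose from 5.00 to 12.0 CPM in callosum and fell from 39.0 to 11.4 CPM in culture. In the authors' deposited table these were log2 changes of 1.24 ± 0.207 (adjusted p = 4.07e-07) and -1.85 ± 0.286 (adjusted p = 2.33e-09). Socs3, a feedback inhibitor of the pathway whose promoter holds TTCTTAGAA, rose from 2.44 to 4.06 CPM in callosum and stood at 28.9 and 15.3 CPM in culture without a call. Cntf, the ciliary neurotrophic factor, had 2.50 and 3.63 CPM in callosum without a call and fell from 43.7 to 18.7 CPM in culture. Cebpd, a transcription factor of acute-phase genes, had 4.43 and 6.78 CPM without a call and fell from 18.5 to 11.2 CPM. The shared receptor subunit gene Il6st did not share the rise, with 131 and 149 CPM in callosum, but fell from 448 to 278 CPM in culture. Stat3 rose from 53.1 to 73.7 CPM in callosum and had 201 and 186 CPM in culture. Tnfrsf1a, a receptor for tumour necrosis factor outside this family, rose from 5.22 to 9.40 CPM and fell from 80.3 to 29.3 CPM.

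Most measured genes of a list that activated microglia raise during demyelination were opposed. Of 13 measured, 11 (84.6%, against 0.847% of all genes) were, all up in callosum and down in culture. They were Apoe, Axl, B2m, Cd63, Cd9, Csf1, Ctsd, Ctsz, Fth1, Lgals3 and Lpl. The list's medians were 0.74 in callosum and -1.07 in culture. It too was chosen with earlier results of these data known. Apoe, the main lipid carrier of the brain (chr7:19696109-19699188, minus strand), rose from 1001 to 1704 CPM in callosum and fell from 6256 to 2349 CPM in culture. Lgals3, galectin-3, rose from 1.54 to 5.63 CPM and fell from 3.24 to 1.43 CPM. Axl, a receptor for phosphatidylserine-bridging ligands, rose from 43.7 to 72.3 CPM and fell from 93.9 to 29.0 CPM. Pros1, which encodes the phosphatidylserine-binding protein S, rose from 17.5 to 31.5 CPM and fell from 51.6 to 29.3 CPM. Csf1, the growth factor on which microglia depend, rose from 22.5 to 47.0 CPM and fell from 107 to 64.7 CPM. Lpl, lipoprotein lipase, rose from 26.3 to 43.9 CPM and fell from 13.2 to 4.89 CPM.

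Microglia-defining RNA was at or near 0 in the cultures. Of 25 microglia markers, 21 were below a mean of 50 in culture and 7 had no reads there (C1qa, C1qb, C1qc, Trem2, Itgam, Ly86 and Cd53). Csf1r stood at 0.130 CPM in WT cultures. The summed level was 57.7 CPM in WT cultures, of which Sall1 gave 33.3 CPM. In callosum the same markers summed to 598 CPM in WT and 1354 CPM in Qk-KO libraries, and Csf1r rose from 98.7 to 184 CPM, beside the rises described here. Their part in those rises was not tested. The most microglia-specific genes of the activated list could not enter the comparison at all. Itgax rose from 0.363 to 18.5 CPM in callosum but had a mean below 50 in culture, as did 12 of the 25 genes of that list.

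Lysosomal genes supplied 9 opposed members of 35 measured (25.7%, against 0.847% of all genes), again all up in callosum and down in culture. Ctsd, Ctsz and Cd63 among them were already counted in the activated microglia list. Ctsd encodes the aspartic protease cathepsin D (chr7:142375911-142388038, minus strand). It rose from 373 to 868 CPM in callosum and fell from 695 to 330 CPM in culture. In the authors' deposited table the changes were 1.19 ± 0.139 (adjusted p = 6.44e-15) and -1.15 ± 0.184 (adjusted p = 8.99e-09). The other cathepsin genes were Ctsz (29.5 to 80.5 CPM, then 41.5 to 22.8 CPM), Ctsc (8.75 to 15.8, then 35.2 to 12.9), Ctsh (8.93 to 21.4, then 4.44 to 2.64) and Ctsa (76.5 to 108, then 180 to 96.4), and all 4 passed in both systems. Hexa encodes a lysosomal enzyme that degrades GM2 ganglioside. It rose from 50.4 to 76.7 CPM and fell from 113 to 53.9 CPM. Grn, progranulin, rose from 33.5 to 71.2 CPM and fell from 64.0 to 41.7 CPM. Cd63, a tetraspanin of late endosomes, rose from 24.6 to 38.5 CPM and fell from 136 to 59.7 CPM. Of 18 genes of saposins, lysosomal sugar hydrolases and other lysosomal enzymes, collected after values had been seen, 4 (22.2%) were opposed. Among them were Hexa and Ctsa, also in the lysosome list, and Dnase2a.

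The lysosome list as measured had medians of 0.35 in callosum and -0.69 in culture, with 14 of 35 called higher in callosum (1.97% of all genes tested) and 26 called lower in culture (18.3% of all). The 26 members that were not opposed had medians of 0.12 and -0.52. Membrane protein genes show the difference. Lamp1 stood at 272 and 277 CPM in callosum and fell from 946 to 316 CPM in culture, and Scarb2 stood at 216 and 198 CPM and fell from 687 to 361 CPM. Galc, the galactosylceramidase that degrades a myelin lipid, likewise had 19.9 and 18.9 CPM in callosum and fell from 32.2 to 7.60 CPM in culture. Lower lysosomal RNA in Qk-KO cultures thus extended to genes that were not called higher in callosum.

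Complement added C4b and C3 of 6 measured genes (33.3%, against 0.847% of all genes). C4b rose from 31.3 to 104 CPM in callosum and fell from 105 to 37.7 CPM in culture, with deposited log2 changes of 1.71 ± 0.234 and -1.55 ± 0.259 in the authors' deposited table. Its close copy C4a, at 1.72 CPM in WT callosum, could share reads with it, so the split between both is uncertain. C3, the central component, rose from 1.63 to 6.01 CPM in callosum and had 2.66 and 1.86 CPM in culture without a call. B2m, the light chain of MHC class I, rose from 56.2 to 86.1 CPM and fell from 192 to 115 CPM. Of 16 chemokine and cytokine genes measured, 4 (25%) were opposed: Csf1, Osmr, Cntf and Tnfrsf1a. C3, B2m, Csf1, Osmr and Cntf also stand in lists given above.

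Iron, redox and lipid genes formed a smaller group, of which Fth1, Apoe and Lpl were already counted in the activated microglia list. The ferritin light chain gene Ftl1 rose from 115 to 170 CPM in callosum and fell from 790 to 451 CPM in culture. The heavy chain gene Fth1 stood at 727 and 1073 CPM in callosum (0.54 ± 0.167, adjusted p = 0.0539, authors' deposited table) and fell from 2048 to 1098 CPM in culture. Both have processed copies in the genome that can share reads. Hmox1, which frees iron from haem, had 3.86 and 5.79 CPM in callosum without a call and fell from 152 to 80.4 CPM in culture. Prdx6, a peroxidase, rose from 177 to 251 CPM and fell from 1539 to 551 CPM. These are 4 of 28 measured genes of the metallothionein, iron and Nrf2 list (14.3%, against 0.847% of all genes). Of 14 iron and ferritin genes, collected after values had been seen, 4 (28.6%) were opposed, the fourth being Cybrd1, a ferric reductase. Abca1, the cholesterol exporter, had 107 and 155 CPM in callosum without a call and fell from 294 to 86.2 CPM in culture. Apoe and Abca1 were the 2 opposed genes among 17 of cholesterol efflux (11.8%), and Lpl and Ucp2 the 2 among 29 PPAR targets (6.90%). Ucp2, a mitochondrial carrier, had 8.97 and 13.0 CPM without a call and fell from 11.2 to 2.63 CPM. Of 32 fatty acid oxidation genes, 0 were opposed, with a culture median of -0.69 and a callosum median of 0.02.

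Capg, an actin-capping protein, had the largest smaller-of-two change of all 126 genes. It rose from 2.33 to 10.1 CPM in callosum and fell from 3.76 to 0.782 CPM in culture. In the authors' deposited table these were log2 changes of 2.10 ± 0.193 (adjusted p = 2.3e-24) and -2.34 ± 0.477 (adjusted p = 1.13e-05). It is 1 of 4 opposed genes among 46 of the cytoskeleton list (8.70%, against 0.847% of all genes), with Msn, Myo1e and Flnc. Msn, moesin, which ties actin to the membrane, rose from 19.4 to 31.6 CPM and fell from 87.5 to 42.0 CPM. Myo1e, an unconventional myosin, rose from 25.1 to 41.9 CPM and fell from 55.0 to 26.8 CPM. Flnc, filamin C, rose from 4.22 to 8.20 CPM and had 15.5 and 9.81 CPM in culture without a call.

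The remaining genes with the largest smaller changes had varied roles. Gem, a small GTPase that inhibits calcium channels, rose from 2.14 to 4.97 CPM in callosum and fell from 16.1 to 5.31 CPM in culture. Tfcp2l1, a transcription factor of stem cells and epithelia, rose from 6.69 to 14.7 CPM and fell from 26.0 to 7.76 CPM. Slc14a1, a urea transporter of astrocytes, rose from 14.4 to 28.4 CPM and fell from 33.9 to 6.70 CPM. Hk2, hexokinase 2, rose from 5.88 to 11.2 CPM and fell from 13.5 to 6.79 CPM. Chil1, a chitinase-like protein of reactive astrocytes, rose from 8.39 to 15.6 CPM and fell from 10.2 to 3.95 CPM. Apobec1, the enzyme that edits Apob RNA, rose from 2.15 to 5.67 CPM and fell from 24.6 to 11.8 CPM. Anxa3 (10.4 to 22.3 CPM, then 2.45 to 1.17 CPM), an annexin, Aldh3b1 (5.36 to 10.3, then 18.7 to 8.16), an aldehyde dehydrogenase, Prr5l (27.3 to 51.6, then 12.9 to 3.75), a partner of mTOR complex 2, and Adamtsl3 (3.39 to 7.40, then 8.41 to 3.74), a matrix protein, were called in both systems as well.

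At the median, opposed genes of both directions moved more in culture than in callosum. Larger culture changes were not particular to them. Over all 12399 genes, 2200 rose and 1796 fell by at least 0.5 in culture, against 319 and 87 in callosum. For some opposed genes the gap was wide. Met, the receptor for hepatocyte growth factor, rose from 9.25 to 16.1 CPM in callosum and fell from 16.6 to 2.90 CPM in culture. Hspb6, a small heat shock protein, rose from 2.60 to 4.48 CPM and fell from 40.3 to 8.72 CPM. Dhrs1, a dehydrogenase of the short-chain family, rose from 42.1 to 60.7 CPM and fell from 667 to 138 CPM, a 4.82-fold fall beside a 1.44-fold rise. Lsp1, an actin-binding protein of leukocytes, had 4.26 and 6.21 CPM in callosum without a call and fell from 4.81 to 0.886 CPM. The genes Met, Hspb6, Dhrs1 and Lsp1 were picked after their values were seen.

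Of 15 measured myelin protein genes, 2 were up in callosum and down in culture (13.3%, against 0.847% of all genes), Mag and Cd9. Of 29 mature oligodendrocyte markers 1 was (3.45%), Hhip, an inhibitor of hedgehog signalling. Mag, the myelin-associated glycoprotein of the membrane next to the axon, rose from 352 to 687 CPM in callosum. In culture it had 35.0 and 24.5 CPM, with a deposited log2 change of -0.59 ± 0.707 (adjusted p = 0.6, authors' deposited table), so a difference in culture was not detectable at this error. Cd9, a tetraspanin of myelin and of microglia, rose from 45.3 to 84.8 CPM and fell from 472 to 325 CPM. Hhip rose from 13.5 to 20.9 CPM and fell from 5.31 to 2.51 CPM. Mog and Opalin, a pair of late myelin genes, rose in both systems, Mog from 107 to 236 CPM in callosum and from 12.2 to 31.3 CPM in culture. The myelin list had medians of 0.31 in callosum and -0.46 in culture.

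**Figure D3:**
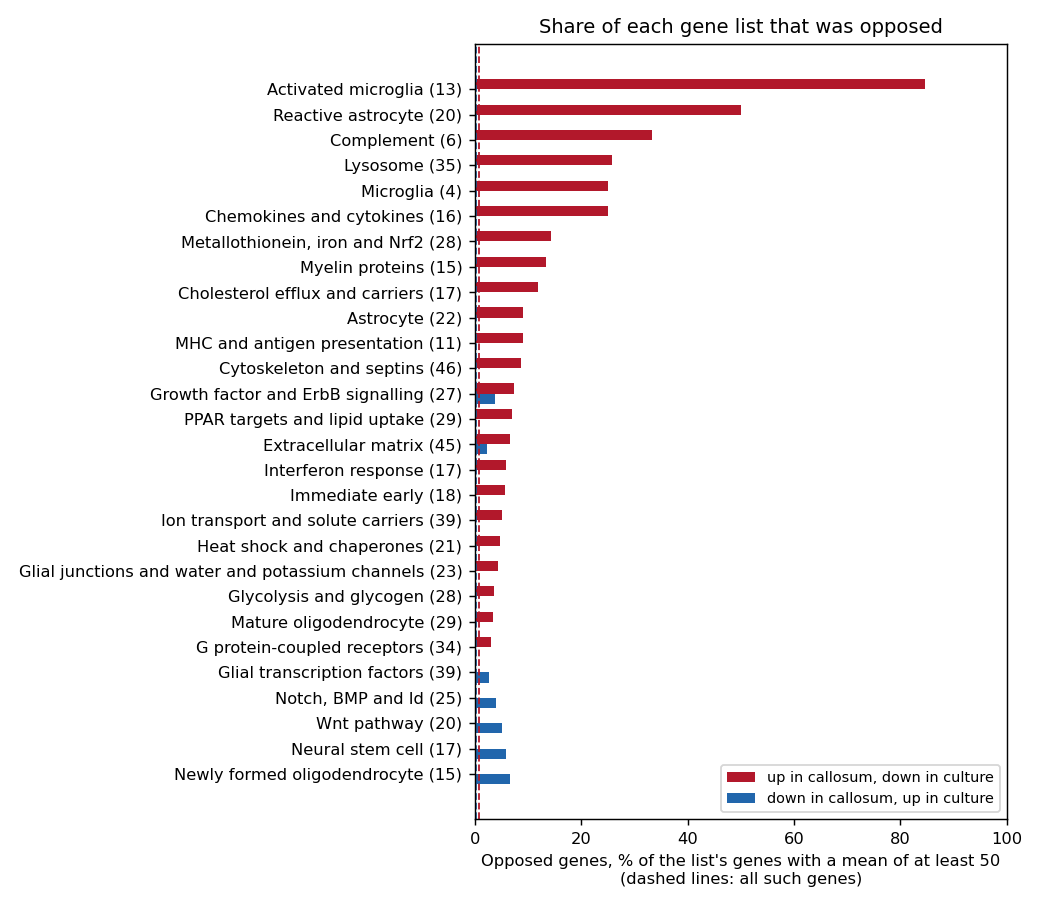
Share that was opposed of each gene list with an opposed member, leaving out the lists collected after values were seen (the thalamic list among them), in percent of the list's genes with a mean of at least 50 in both tables (number in brackets); red is up in callosum and down in culture, blue the reverse, and dashed lines mark the shares over all 12399 genes (0.847% and 0.169%). The activated microglia list (11 of 13 genes) and the reactive astrocyte list (10 of 20) have the longest bars, and each blue bar drawn holds 1 gene. The lists drawn were chosen with earlier results of these data known.

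The 21 genes down in callosum and up in culture had no such common lists: none of the 47 lists of cell types and pathways held more than 1 of them. Tcf7l2, a transcription factor of the Wnt pathway and of newly formed oligodendrocytes, had 19.6 and 11.9 CPM in callosum, with no deposited p, and rose from 30.4 to 45.0 CPM in culture. Hes5, a Notch target of neural stem cells, had 6.10 and 3.94 CPM in callosum without a call and rose from 4.60 to 13.6 CPM in culture. Tnc, the matrix protein tenascin C, had 31.9 and 17.8 CPM in callosum and 61.9 and 107 CPM in culture, with a call in neither. Igfbp3, a carrier of insulin-like growth factors, had 13.8 and 9.12 CPM in callosum without a call and rose from 31.5 to 93.1 CPM in culture.

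Plcb4 and Adamts15 rose steeply in culture. Plcb4, a phospholipase C activated through G protein-coupled receptors (chr2:135659011-136014593, plus strand), had 135 and 92.0 CPM in callosum and rose from 20.5 to 113 CPM in culture. In the authors' deposited table its changes were -0.57 ± 0.254 (adjusted p = 0.433) and 2.39 ± 0.191 (adjusted p = 1.29e-33). Adamts15, a secreted protease that cleaves matrix proteoglycans, had 10.9 and 7.52 CPM in callosum without a call and rose from 0.616 to 4.33 CPM in culture. Adarb1, an RNA-editing adenosine deaminase, had 322 and 223 CPM without a call and rose from 17.1 to 27.8 CPM. Ptpn4, a tyrosine phosphatase, was the most abundant of the 21 in WT callosum, with 404 and 253 CPM there and a rise from 76.9 to 113 CPM in culture.

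The rest had low levels or wide errors. Slitrk6, a synaptic membrane protein, had the largest callosum change, from 12.8 to 5.82 CPM (-1.16 ± 0.538 with no p, authors' deposited table), and rose from 11.7 to 27.4 CPM in culture. Rgs16, a regulator of G protein signalling, had 16.04 and 9.79 CPM in callosum and rose from 14.97 to 26.5 CPM in culture. Vash2, a tubulin carboxypeptidase, had 6.34 and 3.83 CPM in callosum and rose from 10.1 to 22.8 CPM. Kitl, the ligand of the receptor Kit, had 73.2 and 49.6 CPM and rose from 7.89 to 14.3 CPM. Bok, a relative of Bcl2, had 36.6 and 24.0 CPM and rose from 1.47 to 2.62 CPM. The nucleoside and monoamine transporter gene Slc29a4 rose from 8.47 to 15.9 CPM in culture, the calcium channel subunit gene Cacna2d4 from 1.22 to 2.97 CPM, the homeobox gene Six4 from 7.84 to 13.5 CPM and Fam101b from 6.07 to 10.5 CPM. The pacemaker channel gene Hcn4, the synaptotagmin gene Syt9 and the pseudogene Nlrp5-ps were, with Tnc, the 4 not called in culture.

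**Figure D4:**
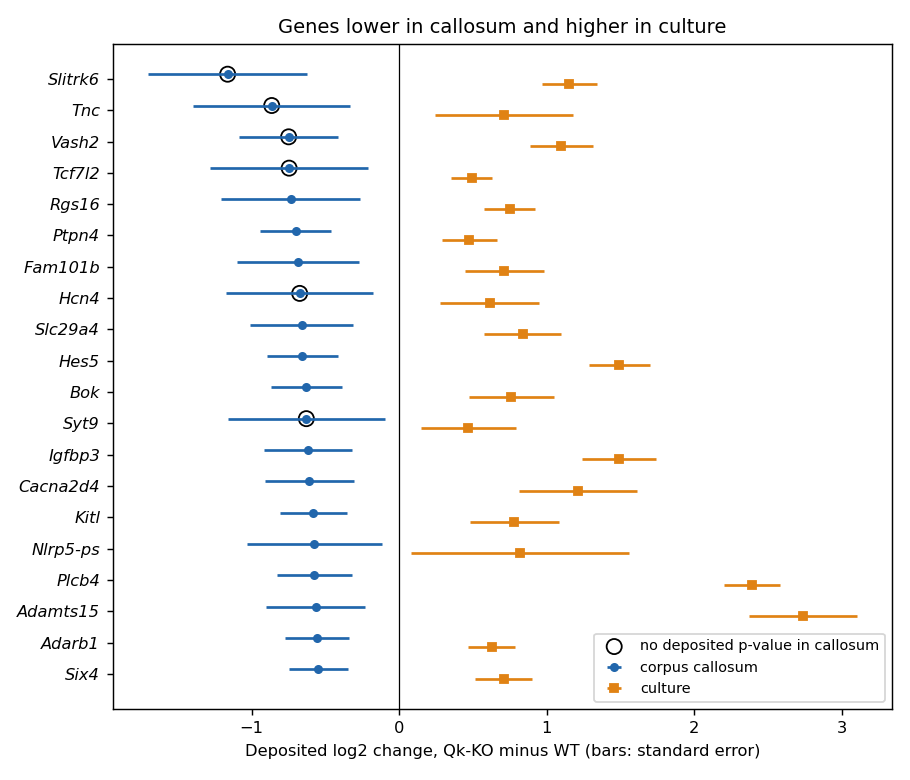
Deposited log2 change (Qk-KO minus WT) with its standard error from the authors' deposited tables for 20 of the 21 genes lower in callosum and higher in culture, in callosum (blue circles) and culture (orange squares); rings mark 6 genes with no deposited p-value in callosum. Callosum errors are wide against changes from -0.55 (Six4) to -1.16 (Slitrk6), and the culture changes of Plcb4 and Adamts15 lie above 2.

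In callosum, 7 of these 21 genes (33.3%) had a fold change but no deposited p, among them Slitrk6, Tnc, Vash2, Hcn4, Tcf7l2 and Syt9. Such a gap stood in 0 of the 105 genes of the other direction, in 67 of all 12399 (0.54%) and in 17 (19.5%) of the 87 genes down by at least 0.5 in callosum. DESeq2 withholds a p where a single library's count lies far from the rest of its group. The median standard error of the 21 genes in callosum was 0.334, against 0.190 for the 105 genes and 0.137 for all, in the authors' deposited table. Several of the 21 are known from the thalamus, a grey-matter region below the callosum. Of 11 thalamic genes measured in both systems, collected after the values were seen, 11 were lower in Qk-KO callosum (median -0.71). Of these, 1 was called lower, and over all 12399 genes 6004 were lower there. Opposed were 4 of the 11 (36.4%, against 0.169% of all genes), namely Tcf7l2, Slitrk6, Rgs16 and Plcb4. The 19 genes of that list summed to 1068 CPM in WT and 636 CPM in Qk-KO callosum, and their part in the callosum values was not tested. Without the 7 genes lacking a p, 14 remained in this direction.

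**Figure D5:**
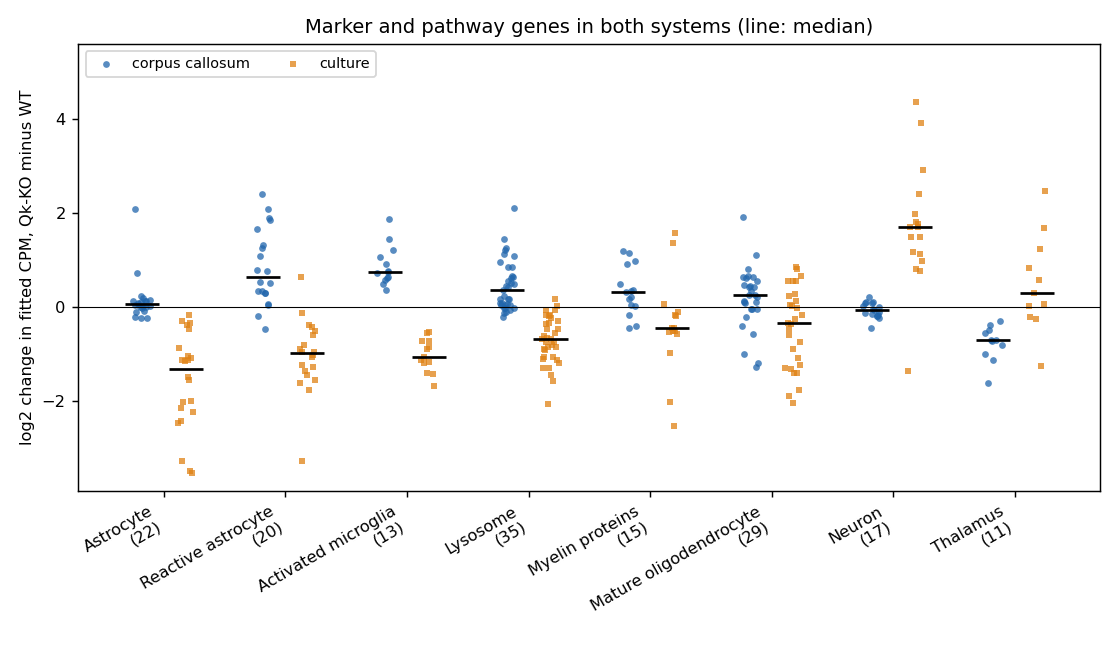
Log2 change in fitted CPM (Qk-KO minus WT) of each measured gene of 8 lists in corpus callosum (blue circles) and culture (orange squares), with the list's median as a line and the number of genes in brackets. Reactive astrocyte, activated microglia and lysosome genes lie above 0 in callosum and below it in culture at the median, astrocyte markers lie below 0 in culture with a callosum median of 0.05, and the thalamic list, collected after values were seen, lies below 0 in callosum.

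Neuron markers, higher in the Qk-KO than in the WT cultures, had no opposed member. Of 17 measured, 16 were called higher in culture (16.5% of all genes tested), with a median of 1.70. The callosum median was -0.07. Over 22 neuron markers the sum was 9384 CPM in WT and 8849 CPM in Qk-KO callosum, and 1058 and 2391 CPM in culture. Summed marker levels of other cell types the samples could hold moved the same way in both systems in some cases and in opposite ways in others. Endothelial and mural markers summed to 596 and 563 CPM in callosum and to 90.3 and 78.7 CPM in culture. Ependymal and choroid plexus markers summed to 2119 and 1248 CPM in callosum, and to 110 and 64.5 CPM in culture. Precursor markers summed to 1513 and 1623 CPM in callosum and to 5002 and 5831 CPM in culture, and none of the 18 measured was opposed. Neural stem cell markers summed to 886 and 985 CPM in callosum and to 3987 and 2877 CPM in culture. Fibroblast and meningeal markers summed to 304 and 321 CPM in callosum and to 218 and 187 CPM in culture. The part of these markers in the results was not tested.

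Qk itself was not opposed. It stood at 713 CPM in WT against 907 CPM in Qk-KO callosum and at 1972 against 3277 CPM in culture. The deposited log2 changes were 0.32 ± 0.12 (adjusted p = 0.162) and 0.66 ± 0.14 (adjusted p = 4.19e-05) in the authors' deposited table. Reads over the whole gene do not check the deletion, so these values show neither its extent nor a fault of the labels.

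The opposed genes had low to middling WT levels at the median. By WT level, the 105 genes had a median percentile of 18.5 among the 12399 in callosum and of 52.2 in culture. For the 21 genes of the other direction the medians were 31.7 and 23.5. The WT level is also the denominator of the change that chose the genes, so the choice alone can shift these percentiles. The range among the 105 was wide, from Lgals3 at 1.54 CPM to Apoe at 1001 CPM in WT callosum. The 126 genes lay on 20 chromosomes, with 18 on chromosome 7 and 11 on chromosome 6, and 15 pairs of neighbours lay within 1 Mb. Among these, Ctsd and Lsp1 were 72771 bases apart, Tnfrsf1a and Cd9 97782, and Grn and Gfap 450288. The matching counts over all 12399 genes were not computed, so no clustering can be read from these positions. The strand setting of the counting is not given in the sources used here. Exons overlapped a gene of the opposite strand in 22 of the 105 genes (21%) and 3 of the 21 (14.3%), against 31.5% of all, and for Ctsa, Ctsz, Grn, Hexa and Cd9 some reads may belong to such a neighbour.

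Over all lengths, quaking-type cores were about as common in the 3′ UTRs of opposed genes as elsewhere. ACTAAC or ACTAAT was found in 41 of 104 genes up in callosum and down in culture (39.4%), in 8 of 20 in the other direction (40%) and in 36.7% of 11530 measured genes with an annotated 3′ UTR of at least 30 bases. Per kilobase the densities were 0.384, 0.301 and 0.346. By 3′ UTR length, genes up in callosum and down in culture had 11.1% against 8.86% of all genes at 30 to 500 bases, 40% against 24.9% at 500 to 1500, and 59.5% against 58.5% above that. Genes of the other direction had 16.7% of 6 at 500 to 1500 bases and 50% of 14 above that. Msn had 3 cores in 1918 bases and Sema3d 4 in 3646. A match of these letters describes the sequence and is not a binding site.

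RefSeq promoters matched 78 of the 105 genes, 16 of the 21 and 9114 of the 12399, searched on both strands over the same 300 bases. TTCNNNGAA was found in 7 of 78 promoters (8.97%), those of Ctsc, Emp1, Gfap, Mag, Pros1, Socs3 and Tnfrsf1a, and in 6.58% of all. TGACTCA was found in 7 of 78 (8.97%), those of Cntf, Cybrd1, Emp1, Gbp2, Irgm1, Met and Plekha4, against 2.96% of all, and in 1 of the 16, that of Slitrk6. CACGTG was found in 6 of 78 (7.69%), 1 of 16 (6.25%) and 10.5% of all. Its extended form TCACGTGA, which overlaps it and is bound by the lysosomal regulator TFEB, was found in 1 of 78, that of Ctsd shown above, and in 2.02% of all. The median number of CG pairs was 14.5 in promoters of genes up in callosum and down in culture, 29.5 in the other direction and 22 over all. The motifs were chosen with the genes known, and a match is a description only.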

How the data were processed

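RNA-seq libraries (14) were analysed from 2 tables, 1 per system. The authors used FastQC, TopHat2 2.0.14, featureCounts and DESeq2 with mm10, per the submitters' processing notes. Of the annotation, strand setting and model design, nothing is given in the sources used here. The deposited library columns hold log2 values. Within a genotype they differ by 1 constant factor at every gene (within 1e-09), so they are the log2 of a fitted mean plus 1 and carry no replicate spread. Per the file headers, the deposited tables also give a mean normalized signal, a log2 fold change (WT over Qk-KO) with its standard error, a test score, and a p-value with its adjusted value. Changes were turned to Qk-KO minus WT.

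Fitted CPM and its log2 change were computed from the library columns (Python 3.11.15, pandas 2.3.3, numpy 2.4.6, scipy 1.17.1). A change from CPM exceeds the deposited one by 0.0231 in callosum and 0.0772 in culture. Count or limma tests planned in case of other column contents could not be used, so calls rest on the authors' deposited DESeq2 Wald test at an adjusted p under 0.05. The culture replicates are 3 passages. The labels do not say whether callosum replicates came from separate animals, so p-values there measure only the spread between these samples, which may be technical. Each table has its own normalization, and no level was compared across tables. The selection was tested on simulated data.

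The members and gene lists (47, and 4 more collected after values were seen) were chosen with earlier results of these data known. Those 4 were thalamus, iron and ferritin, interleukin-6 family, and saposins with lysosomal sugar hydrolases and other lysosomal enzymes. Genes were named by rule: Qk; the 20 genes called in both and the 10 genes per direction with the largest smaller-of-two changes; up to 5 members of each list by difference between systems; up to 4 abundant markers per cell type; and the 2 nearest the threshold on each side. Others were chosen after their values were seen. Coordinates and 3′ UTRs came from GENCODE M21 (GRCm38, the mm10 assembly). Alternatives covered the minimum change and mean, the scaling, the matching of identifiers, the call threshold and the reference of the score. Some genes that the rule names are not reported here.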

Additional observations from a re-analysis of the deposited data

How the results depend on the processing

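Other scalings move every gene alike. Centring on the median gene lowered every culture change by 0.105. The number of opposed genes was 131 (117 shared with the 126) with the deposited fold changes, 134 (118 shared) with centring and 118 (116 shared) with CPM that left out mitochondrially encoded genes, and 126 with identifiers matched without version. It depended on the thresholds. A minimum change of 0.3 gave 429 (308 up in callosum and down in culture, 121 the reverse) and 1.0 gave 14 (13 and 1). A mean of at least 10 gave 260 (184 and 76) and of at least 200 gave 60 (49 and 11). Leaving out genes without a deposited p, chosen after seeing the data, gave 119. Genes called in both systems numbered 63, and from 46 (adjusted p under 0.01) to 69 (under 0.1, or a mean of at least 10) otherwise. A Student reference (6 and 4 degrees of freedom) was also put in place of the normal one for the DESeq2 score. With it, the calls over all genes went from 463 to 8 in callosum and from 5003 to 0 in culture. By that reference, 4187 of 17503 genes had an unadjusted p under 0.05 in culture and 900 of 19935 in callosum. Of the 126 genes, 1 passed an adjusted p under 0.05 by it in callosum and 0 in culture. No paired analysis was possible because the library columns hold fitted means without replicate spread, and for the same reason no replicate could be left out. Depth and 3 or 4 libraries per genotype limit what could be detected for genes of few CPM.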
